A study of Mus musculus with 22 samples.

Results

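The transcripts of 10 enzymes and carriers that bring long-chain fatty acids into mitochondria and oxidise them there were followed in mouse CD8+ T cells: Cpt1a, Cpt2, Slc25a20, Acadvl, Acadl, Acadm, Hadha, Hadhb, Etfa and Etfb. The 10 genes were matched by their symbols, and all 10 of them were found among the 46603 genes of the count table. All 10 also passed the filter on low counts, which left 21183 genes for testing.

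The series holds 22 bulk RNA-seq libraries from 8 mice and was set up around Tcaim, a mitochondrial protein, in the activation of CD8+ T cells. Lymph nodes and spleens were the source; other cells were depleted magnetically, and the naive CD8+ T cells that remained were taken either untouched (naive) or after 24 h or 48 h with 2 µg/ml plate-bound antibody to CD3 and 1 µg/ml soluble antibody to CD28. The KI groups (naive, 24 h and 48 h, 3 mice each) came from the line Tcaim KI Cd4Cre with the genotype label hocre, and the wt groups (naive, 24 h and 48 h, 3 mice each) from the same line with the genotype label wtcre. The KO groups (naive and 48 h, 2 mice each) came from the line Tcaim KO Cd4Cre with the label hocre. No 24 h group and no wt mice of the KO line were analysed here. Every line name carries Cd4Cre, a Cre recombinase under the Cd4 promoter, which is switched on in developing T cells and so before the CD8 lineage is fixed. Each mouse gave 1 library per time. Replicate numbers 1, 3 and 5 stand for 3 experiments. Replicates 1 and 3 of KI and wt were male and replicate 5 was female, while both KO mice (replicates 1 and 5) were female. Ages are not given in the sources used here.

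Long-chain fatty acids cross into mitochondria as carnitine esters: Cpt1a makes the ester on the outer membrane, Slc25a20 exchanges it for free carnitine across the inner membrane, and Cpt2 restores the acyl-CoA inside. Acyl-CoA dehydrogenases that differ in the chain length they prefer (Acadvl, Acadl and Acadm) then start each round of beta-oxidation, and the trifunctional protein, built from Hadha and Hadhb, carries out the remaining steps on long chains. Electrons from the dehydrogenases pass to the electron transfer flavoprotein, a dimer of Etfa and Etfb, and on to the respiratory chain. Naive and memory CD8+ T cells are known for their use of fatty acid oxidation, and activated effector cells for a turn to glycolysis and to the building of lipids.

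Total counts per library ranged from 62551905 to 93489115. Tcaim itself stood at 141 ± 3.28 CPM (counts scaled to the normalised library total; SD, n = 3) in naive KI cells and 14.8 CPM in naive wt cells, but the libraries labelled KO did not differ from wt in it (log2 fold change 0.21 in naive cells, edgeR adjusted p = 1, and -0.19 at 48 h, adjusted p = 0.841). The counts cover the whole gene and need not miss a deleted part, so the KO label was not checked by them. Cd8a was high throughout (912 to 1497 CPM in naive and 647 to 1008 CPM in stimulated libraries), and Il2ra, the receptor chain induced on activation, stood at 2.31 to 19.1 CPM in naive and at 101 to 509 CPM in stimulated libraries. For these and all other cell markers, CPM are counts scaled to the plain library total, without normalisation. The summed level of 20 markers of CD4+ T, B, myeloid, dendritic, NK and erythroid cells was 341 to 2421 CPM in naive and 90.7 to 461 CPM in stimulated libraries. It was highest in the naive library labelled KO replicate 1, and none of the 20 was at 0 in every library. In wt and in KI it was lower in all stimulated than in all naive libraries, and its part in the changes after stimulation was not tested. In bulk RNA, fewer cells of a type and less RNA per cell cannot be told apart.

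Per gene length, these 10 genes spanned about an order of magnitude in naive wt cells. FPKM (normalised fragments per kilobase of gene length, as deposited by the authors; mean ± SD, n = 3) was highest for Acadvl, at 35.9 ± 2.65, followed by Cpt1a at 28.7 ± 3.09, Acadl at 27.0 ± 3.39, Etfa at 26.0 ± 2.21 and Etfb at 24.9 ± 1.93. Hadha at 17.8 ± 0.878 and Acadm at 17.2 ± 1.04 were next, and Slc25a20 at 6.22 ± 0.545, Cpt2 at 4.93 ± 0.186 and Hadhb at 3.40 ± 0.292 were lowest. From Cpt1a to Etfb, and from Hadha to Acadm, each neighbour lay within about 1 SD of the next. The place of Hadhb, and so the width of the span, is uncertain. A near-identical pseudogene held 76.2% to 78.6% of the summed counts of both in these naive wt libraries. Genes that overlap exons of Acadvl and Etfb held 50.8% to 51.7% and 46.2% to 47.3% of such sums. After 48 h the order was different: Acadl led at 78.5 ± 7.41 FPKM, with Etfa at 60.9 ± 10.5 and Etfb at 58.2 ± 3.36 behind it, and Acadvl at 28.9 ± 12.9 and Cpt1a at 15.8 ± 3.31 had dropped below them.

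**Figure D1:**
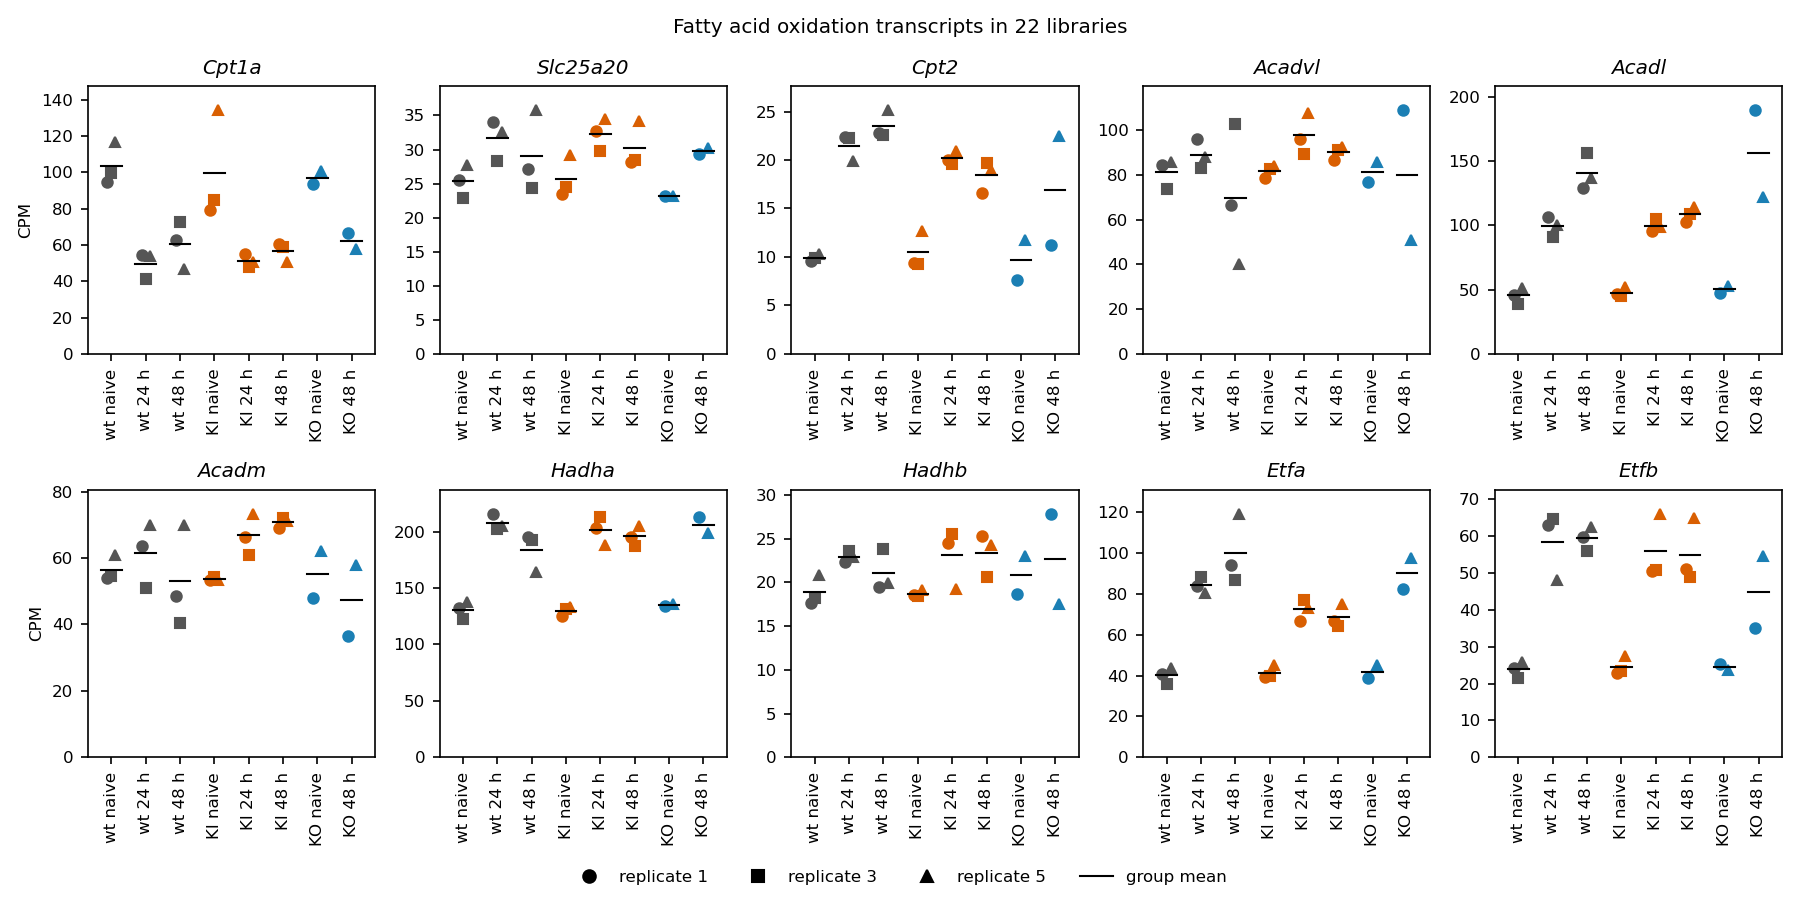
CPM (vertical axes, linear, from 0) of the 10 genes in each of the 22 libraries, by group along the horizontal axis; each point is 1 library, its shape gives the replicate number, and the bar is the group mean. Cpt1a is lower in all stimulated libraries than in all naive ones, while Acadl, Etfa and Etfb are higher.

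Between naive and stimulated cells 6 of the 10 genes changed, 1 downward and 5 upward. No group was cultured without the antibodies, so stimulation and time in culture cannot be told apart. In wt cells Cpt1a fell, and Cpt2, Acadl, Hadha, Etfa and Etfb rose, at both 24 h and 48 h; the same 6 genes were called in KI cells at both times and in the libraries labelled KO at 48 h. Slc25a20, Acadm, Acadvl and Hadhb were not called in any of these comparisons. A gene is called here where the edgeR quasi-likelihood test gave a Benjamini-Hochberg adjusted p below 0.05 over all 21183 genes. Calls were common in these contrasts: 48.3% of all genes were called at 24 h and 56.3% at 48 h in wt, 38.7% and 48.6% in KI, and 44% at 48 h in the libraries labelled KO. By direction in wt, 5 of the 10 were called higher where 26.3% (24 h) and 29.5% (48 h) of all genes were, and 1 of 10 lower where 22% and 26.8% were. The count of 6 of 10 called is thus near or a little above the background. The median log2 fold change of the 10 genes was 0.50 at 24 h and 0.35 at 48 h in wt (-0.05 and -0.04 over all genes), 0.48 and 0.50 in KI (0.01 and -0.02) and 0.48 in the libraries labelled KO (0.01). The naive and the 24 h ranges of the wt libraries were apart for 8 of the 10 (64.7% of all genes), and the naive and the 48 h ranges for 6 (61.2%). In KI they were apart for 10 of 10 at 24 h (60.1% of all genes) and for 9 at 48 h (66.5%). The 24 h and 48 h contrasts of a genotype share its naive libraries.

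**Figure D2:**
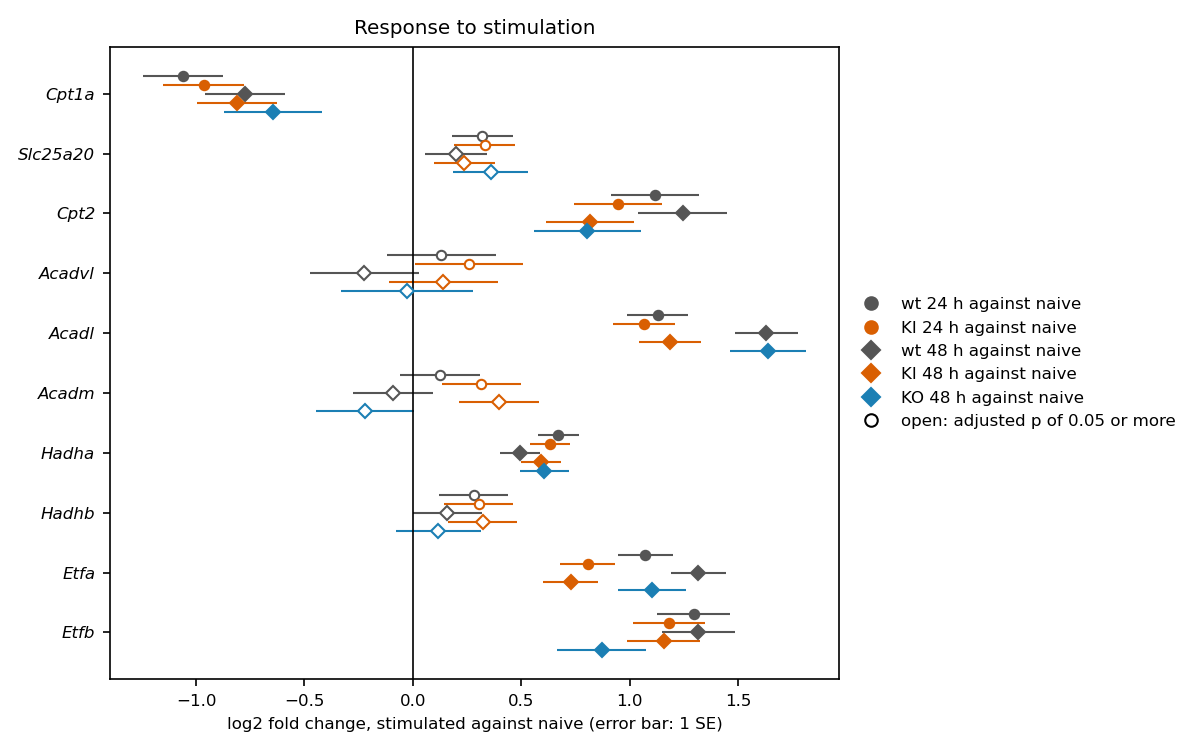
Log2 fold change of stimulated against naive cells (horizontal axis, with 1 SE) for each gene (vertical axis), coloured by genotype, with circles for 24 h and diamonds for 48 h; filled symbols have an adjusted p below 0.05. Cpt1a lies left of 0 in all 5 contrasts, from -1.06 to -0.64, and Acadl, Etfa and Etfb lie right of it.

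The carnitine shuttle held 1 gene that fell, 1 that rose and 1 that was not called. Cpt1a (ENSMUSG00000024900, GRCm38 chr19:3323301-3385732, plus strand) is the enzyme that malonyl-CoA inhibits and that limits the entry of long chains. In wt cells its 3 libraries stood at 94.5, 99.9 and 117 CPM when naive, at 54.6, 41.0 and 53.8 CPM at 24 h and at 62.6, 72.7 and 46.9 CPM at 48 h (replicates 1, 3 and 5). Every naive library was above every stimulated one. Its log2 fold change in wt was -1.06 (SE 0.186, edgeR adjusted p = 0.000128) at 24 h and -0.77 (SE 0.185, adjusted p = 0.00163) at 48 h. KI cells gave 79.6, 85.0 and 134 CPM when naive, 54.8, 47.7 and 50.6 at 24 h and 60.7, 58.8 and 50.8 at 48 h, again without overlap. The naive spread in KI came from replicate 5, and the call at 48 h (-0.81, edgeR adjusted p = 0.00138) was lost without that mouse (-0.44, adjusted p = 0.0870). The 2 mice labelled KO went from 93.6 and 101 CPM when naive to 66.4 and 57.9 CPM at 48 h (-0.64, edgeR adjusted p = 0.0269). Leaving out either mouse, which left 1 library per time, ended that call. Within experiments 1, 3 and 5 the 48 h change in wt log2 CPM was -0.59, -0.46 and -1.32.

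Short DNA motifs were searched on both strands in the RefSeq promoter windows (GRCm38.p6, 250 bases before to 50 after the start, 32851 windows in all), and a match is a description of letters, not of binding. The stretch before the RefSeq start of Cpt1a, at chr19:3323165-3323284 (GRCm38.p6, plus strand), is shown because Cpt1a alone of the 10 fell. Another annotation, GENCODE M21, starts the gene further upstream, at base 3322334, so the stretch lies inside the gene there. Capitals mark a nuclear receptor half-site (AGGTCA, here on the other strand) and GC boxes (GGGCGG, here on the other strand).
Cpt1a: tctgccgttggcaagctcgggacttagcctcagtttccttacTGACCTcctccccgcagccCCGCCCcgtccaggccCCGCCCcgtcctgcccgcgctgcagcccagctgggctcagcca
The half-site was in 3 of the 10 windows (Cpt1a, Acadm and Acadvl) and in 16.3% of all windows, so it was present in a gene that fell and in a pair that were not called. The full DR1 element, known as the site of PPAR with RXR (AGGTCA, any 1 base, AGGTCA), was in 0 of the 10 windows and in 0.0396% of all. TCAAGGTCA, known as an ERR element, was also in 0 of the 10 and in 0.423% of all.

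Cpt2 (ENSMUSG00000028607, chr4:107903981-107923610, minus strand), the inner-membrane partner of Cpt1a, went the other way. Its wt libraries stood at 9.55, 9.86 and 10.3 CPM when naive, 22.4, 22.3 and 19.9 CPM at 24 h and 22.8, 22.6 and 25.1 CPM at 48 h. Every stimulated library was far above the highest naive one. The log2 fold change was 1.11 (SE 0.204, edgeR adjusted p = 0.000195) at 24 h and 1.24 (SE 0.204, adjusted p = 4.84e-05) at 48 h. In KI the naive libraries were at 9.40, 9.29 and 12.7 CPM, those of 24 h at 20.03, 19.6 and 20.9 CPM and those of 48 h at 16.6, 19.7 and 18.9 CPM. The 48 h change of 0.82 in KI (edgeR adjusted p = 0.00276) was not called without replicate 3 (0.69, adjusted p = 0.0588). The 2 libraries labelled KO differed from each other at 48 h, with 11.3 CPM in replicate 1 and 22.5 in replicate 5, after 7.57 and 11.8 CPM when naive (0.80, edgeR adjusted p = 0.0137; 0.57 without replicate 5, adjusted p = 0.0544).

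Slc25a20 (ENSMUSG00000032602, chr9:108662088-108684641, plus strand), the carnitine-acylcarnitine carrier between those enzymes, stayed within 22.8 to 35.8 CPM over all 22 libraries. In wt it was at 25.5, 22.8 and 27.8 CPM when naive, 34.0, 28.3 and 32.6 CPM at 24 h and 27.2, 24.4 and 35.8 CPM at 48 h. The ranges of naive and 24 h cells were apart by a small gap, and those of naive and 48 h cells overlapped. The log2 fold change at 24 h was 0.32 in wt (edgeR adjusted p = 0.0699) and 0.33 in KI (adjusted p = 0.0716). With the mouse as a block both became calls (edgeR adjusted p = 0.0270 for each), as did the libraries labelled KO at 48 h (0.36, adjusted p = 0.1001 without and 0.0457 with the block). The windows of Cpt2 and Slc25a20 held CCGGAAGT, known as a GABPA element, which was in these 2 of the 10 and in 3.89% of all windows.

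The 3 acyl-CoA dehydrogenases did not move together. Acadl (ENSMUSG00000026003, chr1:66830839-66863277, minus strand), which acts on long chains, had the largest change of the 10 at 48 h in each genotype. Its wt libraries stood at 46.1, 39.1 and 51.3 CPM when naive, 107, 91.2 and 100 CPM at 24 h and 129, 157 and 137 CPM at 48 h. The 3 times formed 3 ranges without overlap, and Acadl was the only one of the 10 called between 24 h and 48 h in wt (0.50 on the log2 scale, SE 0.140, edgeR adjusted p = 0.0344; 7.49% of all genes were called). That call was lost without any 1 of the wt replicates (0.62, 0.36 and 0.53 without replicates 1, 3 and 5; edgeR adjusted p from 0.132 to 0.212). Against naive cells the log2 fold change was 1.13 (SE 0.142, edgeR adjusted p = 3.34e-06) at 24 h and 1.63 (SE 0.143, adjusted p = 2.78e-08) at 48 h. In KI the libraries were at 46.3, 45.0 and 51.8 CPM when naive, 95.5, 105 and 98.7 CPM at 24 h and 102, 109 and 115 CPM at 48 h, a step that came mostly by 24 h (1.06 and then 1.19 against naive). Between 24 h and 48 h none of the 10 genes was called in KI by edgeR or DESeq2, 0 had an unadjusted p below 0.05, and 2.68% of all genes were called. The libraries labelled KO rose from 47.3 and 53.0 CPM to 189 and 122 CPM (1.64, SE 0.176, edgeR adjusted p = 7.52e-07).

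Acadvl (ENSMUSG00000018574, chr11:70010183-70015411, minus strand), the very-long-chain enzyme of the inner membrane, gave no call. Its wt libraries stood at 84.4, 73.5 and 85.8 CPM when naive and 96.2, 82.9 and 87.9 CPM at 24 h, but at 66.4, 103 and 39.9 CPM at 48 h. The 48 h wt group thus spread over more than the range of every other wt or KI group, on both sides of the naive level. Its sign depended on single mice: the log2 fold change at 48 h was -0.22 (SE 0.250, edgeR adjusted p = 0.463), -0.68 without replicate 3 (adjusted p = 0.0407) and 0.094 without replicate 5 (adjusted p = 0.781). The KI libraries at 48 h lay close together, at 86.7, 91.2 and 92.2 CPM, and those labelled KO did not (109 and 50.8 CPM). Exons of Acadvl overlap those of Dvl2 on the opposite strand over 1151 bases. Dvl2 held 44.5% to 61% of the summed counts of both genes, and how the counting treated strand is not given in the sources used here.

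Acadm (ENSMUSG00000062908, chr3:153922357-153944632, minus strand), the medium-chain enzyme, stood in wt at 54.0, 54.7 and 60.8 CPM when naive, 63.7, 51.0 and 70.1 CPM at 24 h and 48.5, 40.5 and 70.1 CPM at 48 h. The 3 times overlapped. In KI both stimulated groups lay above the naive one, with 53.5, 54.4 and 53.3 CPM when naive, 66.3, 61.1 and 73.3 CPM at 24 h and 69.0, 72.2 and 71.2 CPM at 48 h. The KI change of 0.40 at 48 h missed the threshold (SE 0.184, edgeR adjusted p = 0.0818) and passed it with the mouse as a block (adjusted p = 0.0153). In the libraries labelled KO it was at 48.1 and 62.3 CPM when naive and at 36.5 and 58.0 CPM at 48 h.

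The subunits of the trifunctional protein lie head to head on chromosome 5: Hadha (ENSMUSG00000025745, chr5:30118304-30155162) on the minus strand and Hadhb (ENSMUSG00000059447, chr5:30155248-30184593) on the plus strand, with 85 bases between their starts. Of 21951 protein-coding genes, 6.77% had such a divergent neighbour within 1000 bases. The stretch between the 2 starts, chr5:30155163-30155247 (GRCm38.p6, plus strand), is shown because both genes share it; capitals mark GC boxes (GGGCGG), which were in 7 of the 10 windows and in 35.7% of all. The starts here are those of the authors' gene positions; RefSeq places the start of Hadha further inside the gene, so its searched window holds the left box alone, while that of Hadhb holds both.
between Hadha and Hadhb: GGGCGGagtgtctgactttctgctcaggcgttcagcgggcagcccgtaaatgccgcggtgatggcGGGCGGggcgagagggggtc
Hadha, the subunit with the hydratase and dehydrogenase activities, rose in every genotype. Its wt libraries stood at 132, 122 and 137 CPM when naive, 216, 202 and 205 CPM at 24 h and 195, 192 and 164 CPM at 48 h, with all stimulated libraries above all naive ones. The log2 fold change was 0.67 (SE 0.0933, edgeR adjusted p = 1.09e-05) at 24 h and 0.49 (SE 0.0931, adjusted p = 0.000191) at 48 h, the smallest of the rises but also the one with the smallest error. KI gave 0.63 and 0.59, and the libraries labelled KO 0.61.

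Hadhb, the thiolase subunit, was not called in any contrast. Its wt libraries stood at 17.6, 18.2 and 20.8 CPM when naive, 22.3, 23.6 and 22.9 CPM at 24 h and 19.5, 23.8 and 19.9 CPM at 48 h. The 24 h libraries lay above the naive ones and the 48 h libraries overlapped them (log2 fold change 0.28, edgeR adjusted p = 0.151, and 0.16, adjusted p = 0.411). Across the 22 libraries the log2 CPM of Hadha and Hadhb had a Pearson r of 0.66, and its partner ranked 5268 among the genes most like Hadha.

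The Hadhb values rest on counts that a copy could take. Gm13910 (ENSMUSG00000063684, chr2:108948806-108950233), a processed pseudogene, differs from the 1428 coding bases of Hadhb at 3 positions, and 1129 of the 1974 stretches of 75 bases (1 read length) in the Hadhb transcript are identical in it. The stretch around 1 of those differences is shown, since within the coding part only such bases tell the copies apart; the capital marks the mismatch, at coding bases 171 to 231 of Hadhb and chr2:108948976-108949036 of Gm13910.
Hadhb: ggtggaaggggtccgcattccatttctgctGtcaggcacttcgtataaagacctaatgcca
Gm13910: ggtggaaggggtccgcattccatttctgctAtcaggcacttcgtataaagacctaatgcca
Gm13910 was assigned 58.3 to 73.4 CPM in naive wt libraries and 90.6 to 96.7 CPM at 24 h, and held 68.2% to 81.3% of the summed counts of both (median 78.8%). The lowest share was in the 48 h library labelled KO replicate 1. Gm13910 was called higher at 24 h in wt (0.52, edgeR adjusted p = 0.00354) and KI (0.53, adjusted p = 0.00455) and at 48 h in KI (0.43, adjusted p = 0.0140), but not at 48 h in wt (0.31, adjusted p = 0.0581) or in the libraries labelled KO (-0.02, adjusted p = 0.936). With the counts of its copies added, Hadhb was called at 24 h in wt (0.47, edgeR adjusted p = 0.00384) and KI (0.48, adjusted p = 0.00464) and at 48 h in KI (0.40, adjusted p = 0.0112). Whether those counts came from Hadhb or from Gm13910 cannot be read from them, so the level and the response of Hadhb are uncertain.

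**Figure D3:**
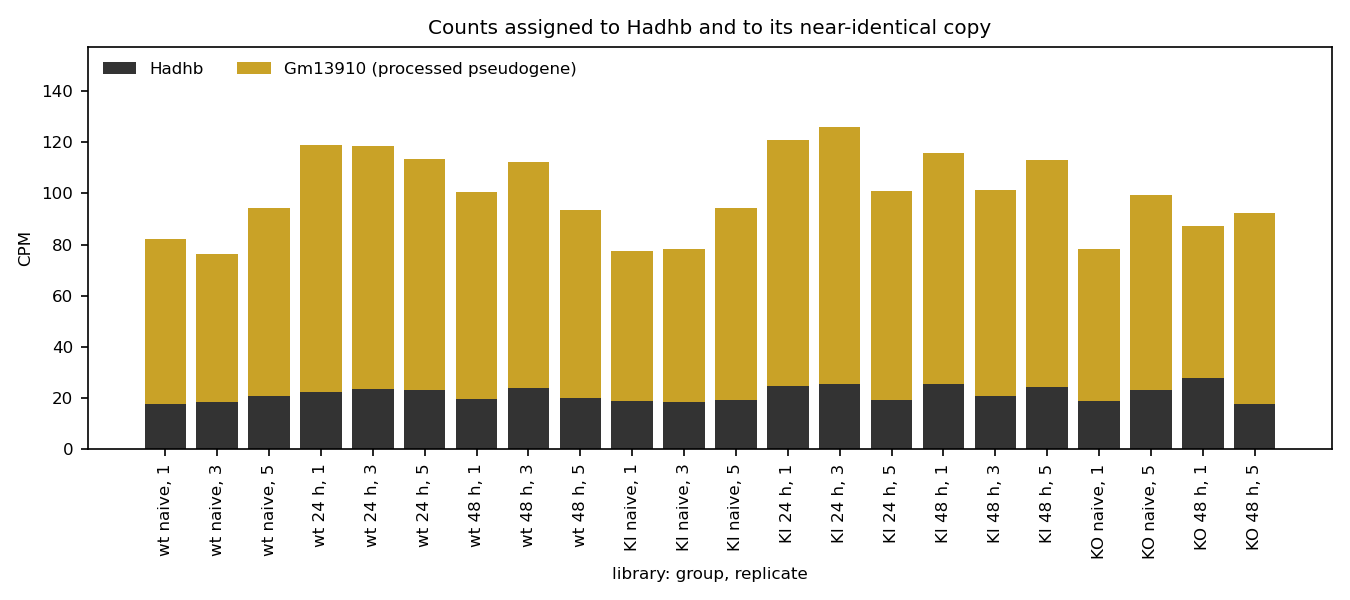
CPM (vertical axis, from 0) assigned to Hadhb (dark) and to its processed pseudogene Gm13910 (yellow), stacked, in each of the 22 libraries (horizontal axis: group and replicate). The copy holds 68.2% to 81.3% of the sum in every library, and the sums range from 76.5 to 126 CPM.

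Both subunits of the electron transfer flavoprotein rose after stimulation. The stretches before their starts are shown because they belong to the partner subunits of 1 protein on different chromosomes, both of which rose (Etfa at chr9:55512244-55512363, minus strand, and Etfb at chr7:43443952-43444071, plus strand, GRCm38.p6); capitals mark CCAAT boxes (CCAAT, or ATTGG on the other strand), which each of them held more than once, while 3 of the 10 windows (also Cpt1a) and 37.4% of all windows held at least 1.
Etfa: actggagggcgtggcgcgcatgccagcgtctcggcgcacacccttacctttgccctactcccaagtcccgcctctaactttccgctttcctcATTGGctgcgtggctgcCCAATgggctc
Etfb: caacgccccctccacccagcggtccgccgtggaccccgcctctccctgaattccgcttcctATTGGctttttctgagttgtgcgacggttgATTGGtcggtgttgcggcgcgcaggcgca
Etfa (ENSMUSG00000032314, chr9:55454508-55512243, minus strand) stood in wt at 40.8, 36.0 and 43.5 CPM when naive, 84.0, 88.4 and 80.5 CPM at 24 h and 94.0, 86.6 and 119 CPM at 48 h. All stimulated libraries were far above all naive ones. The log2 fold change was 1.07 (SE 0.127, edgeR adjusted p = 1.77e-06) at 24 h and 1.32 (SE 0.128, adjusted p = 9.62e-08) at 48 h. KI gave smaller values, 0.81 (adjusted p = 6.25e-05) and 0.73 (adjusted p = 0.000117), and the libraries labelled KO gave 1.103 (edgeR adjusted p = 1.70e-05). A processed pseudogene, Gm15285, matches 486 of the 1392 bases of the Etfa transcript, with 93.4% identity in its longest match. Gm15285 held 20.9% to 24.6% of the summed counts, but only 4 of 1318 stretches of 75 bases are identical in both.

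Etfb (ENSMUSG00000004610, chr7:43444083-43457800, plus strand) stood in wt at 24.2, 21.6 and 25.8 CPM when naive, 62.9, 64.6 and 48.0 CPM at 24 h and 59.7, 56.0 and 62.3 CPM at 48 h. Again no stimulated library reached down to the naive range. The log2 fold change was 1.29 (SE 0.168, edgeR adjusted p = 5.01e-06) at 24 h and 1.31 (SE 0.168, adjusted p = 2.86e-06) at 48 h in wt, 1.18 and 1.16 in KI, and 0.87 (adjusted p = 0.00210) in the libraries labelled KO. The last value rested on replicate 5, without which it was 0.47 (adjusted p = 0.156). The predicted gene Gm45233 overlaps 617 exon bases of Etfb on the same strand and held 46.2% to 47.9% of the summed counts, so the count of Etfb depends on how shared reads were assigned.

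The comparison of KI with wt asks how the Tcaim knock-in changes these transcripts. In naive cells and at 24 h none of the 10 was called by edgeR or DESeq2, and 0 had an unadjusted p below 0.05; 0.113% and 0.00472% of all genes were called. At 48 h Etfa was lower in KI, and it was the only one of the 10 called, where 4.17% of all genes were called (1.89% lower). The 48 h libraries of Etfa were at 66.7, 64.1 and 74.8 CPM in KI against 94.0, 86.6 and 119 CPM in wt. The highest KI library was below the lowest wt library, and the KI libraries stood near their own 24 h level (66.7, 77.2 and 73.2 CPM). The log2 fold change was -0.54 (SE 0.126, edgeR adjusted p = 0.0190), or 0.686 times the wt level. Within experiments 1, 3 and 5 the difference was -0.50, -0.43 and -0.67. That all 3 are lower already follows from the ranges being apart. The call was lost when 1 of 4 mice was left out (KI replicate 1 or 3, or wt replicate 1 or 5). Leaving out a mouse removed its libraries of all times, and the edgeR adjusted p then ran from 0.0999 to 0.172. The call was also lost when the KI and wt libraries of 48 h were fitted alone (edgeR adjusted p = 0.155). The counts of the pseudogene Gm15285 gave -0.51 (adjusted p = 0.0383), and Etfa with its copies added -0.54 (adjusted p = 0.0188). The response of Etfa from naive to 48 h differed between KI and wt by -0.59 (SE 0.178, unadjusted p = 0.00376), which was not called (edgeR adjusted p = 0.204). None of the 10 was called in such a test of the response for KI at 24 h, KI at 48 h or the libraries labelled KO at 48 h, by edgeR or DESeq2; 0, 2 (Etfa and Acadl) and 0 had an unadjusted p below 0.05, and 0%, 0.387% and 0% of all genes were called. Etfb, the partner subunit, showed -0.11 (adjusted p = 0.784).

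A pair of the other genes that rose in stimulated cells had 48 h ranges that did not overlap between KI and wt. Acadl was at 102, 109 and 115 CPM in KI and 129, 157 and 137 in wt (-0.38, SE 0.140, edgeR adjusted p = 0.149), and Cpt2 at 16.6, 19.7 and 18.9 CPM in KI and 22.8, 22.6 and 25.1 in wt (-0.35, SE 0.201, adjusted p = 0.390). Neither passed the test. Each was lower in KI in 3 of 3 experiments, which ranges apart already imply. With Etfa, 3 of the 10 had ranges apart at 48 h, where 20.6% of all genes did. Acadm was higher in KI at 48 h in 3 of 3 experiments (0.51, 0.83 and 0.02) without a call (0.42, SE 0.184, adjusted p = 0.236). Acadvl differed by 0.37 (SE 0.250, adjusted p = 0.480), and the others by at most 0.15 in size. The summed level of the 20 other-cell markers at 48 h was higher in KI in 3 of 3 experiments (198 against 96.3, 195 against 138 and 383 against 263 CPM). At 24 h it was also higher in KI in each (168 against 133, 175 against 171 and 439 against 336 CPM). In naive cells it was lower in KI in each (472 against 551, 481 against 874 and 775 against 991 CPM). The ranges overlapped, and the part of these cells in the differences was not tested.

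**Figure D4:**
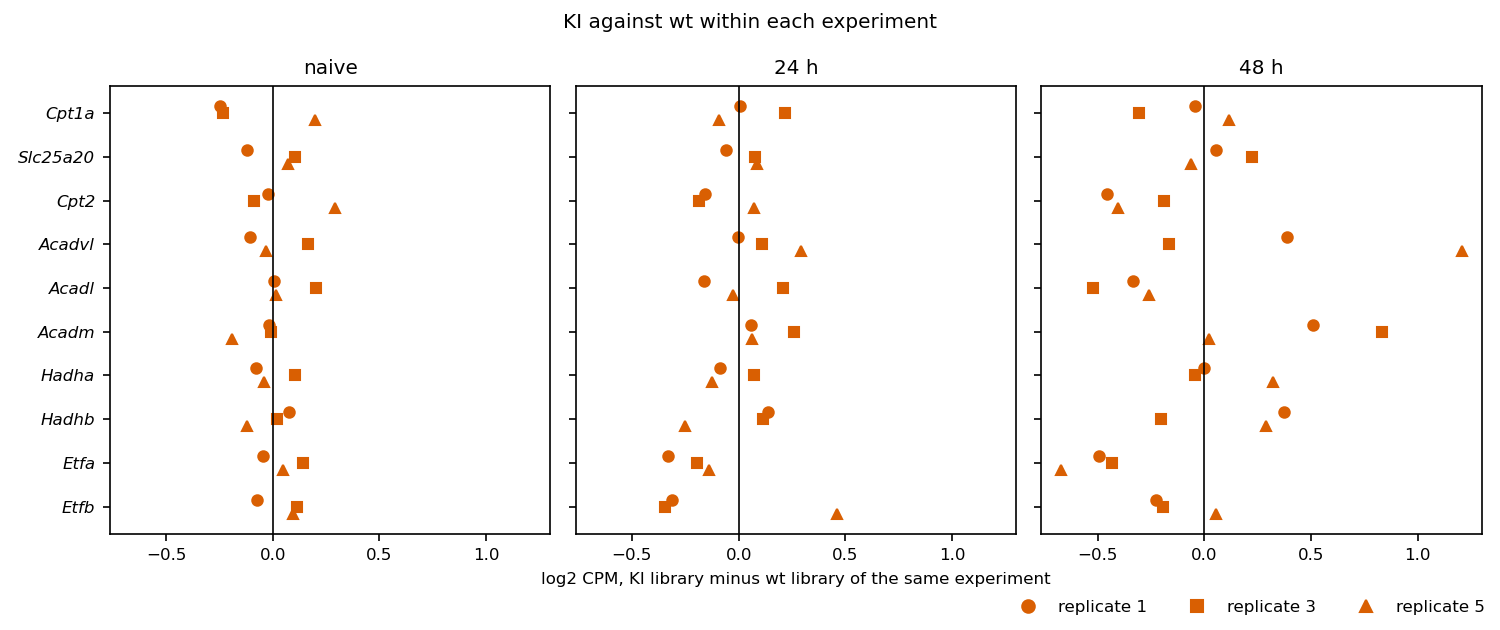
Difference in log2 CPM between the KI and the wt library of the same experiment (horizontal axes) for each gene (vertical axis), in naive, 24 h and 48 h cells; each point is 1 experiment. At 48 h all 3 points lie left of 0 for Cpt2, Acadl and Etfa and right of 0 for Acadm.

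The libraries labelled KO were set against the wt libraries of the other line, so that line and label cannot be told apart. Sex was also unbalanced, since both KO mice were female and 2 of the 3 wt mice were male. None of the 10 genes was called in naive cells (0.0236% of all genes were called) or at 48 h (0.0283%), by edgeR or DESeq2. At an unadjusted p below 0.05 there were 0 in naive cells and 1 at 48 h. That gene was Etfb, at 35.1 and 54.5 CPM in the libraries labelled KO against 56.0 to 62.3 CPM in wt (-0.40, SE 0.187, edgeR adjusted p = 0.714). Cpt2 was next (-0.47, SE 0.227, adjusted p = 0.723). In both it was replicate 1 that stood low, and without replicate 5 both were called (Cpt2 -1.06, adjusted p = 0.00121; Etfb -0.76, adjusted p = 0.0166), with the lone library assumed to vary like the other groups. Replicate 1 also had the highest sum of other-cell markers, with 461 CPM at 48 h against 90.7 CPM in replicate 5, and 2421 against 341 CPM when naive. The part of those cells in these values was not tested. Etfa, the gene called in KI, was at 82.4 and 97.7 CPM in the libraries labelled KO at 48 h, within or near the wt range (-0.15, adjusted p = 0.824).

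The 10 genes were set beside lists of the genes around them, which were drawn up with earlier results of these data known. The 21 other mitochondrial genes of the carnitine cycle and beta-oxidation had more calls upward than downward in wt cells. At 24 h 9 were called higher and 2 lower (median log2 fold change 0.42; 26.3% and 22% of all genes), and at 48 h 11 higher and 3 lower (0.58; 29.5% and 26.8% of all genes). Over the alternative settings the count called higher at 24 h ran from 6 to 11. Etfdh, which takes the electrons from the flavoprotein to ubiquinone, rose with it, by 0.98 at 24 h (edgeR adjusted p = 6.86e-07) and 1.04 at 48 h (adjusted p = 2.01e-07). Decr1, the reductase needed for unsaturated chains, rose by 1.102 and 1.32 (adjusted p = 1.00e-05 and 8.08e-07), and Acad9, an acyl-CoA dehydrogenase that also serves complex I assembly, by 0.89 and 0.87. Smaller rises were seen for Echs1, the short-chain hydratase (0.61 and 0.76), and Acat1, a thiolase (0.59 and 0.64). Among those that fell were Slc22a5, the carnitine importer of the cell membrane (-0.59 and -0.45), and Acot2, a mitochondrial acyl-CoA thioesterase (-0.84 and -1.30). Against wt at 48 h, 0 of these 21 were called in KI by edgeR (median -0.14), where 4.17% of all genes were. Up to 1 was called in each direction over the alternatives, DESeq2 included. An unadjusted p below 0.05 was seen in 7 of the 21 and in 3793 of all 21183 genes.

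Of 13 genes of fatty acid uptake and activation, 7 were called higher and 4 lower in wt at 48 h. Of all genes, 29.5% were called higher and 26.8% lower. The median log2 fold change of the 13 was 1.39, against -0.04 over all genes. Acsl5, Acsl3 and Acsl4, which charge fatty acids with coenzyme A, rose by 1.62 (edgeR adjusted p = 1.08e-09), 2.56 (adjusted p = 6.73e-09) and 1.43 (adjusted p = 9.96e-08). Fabp4, a fatty acid binding protein, was called lower (adjusted p = 0.000687) at levels near 0, from 0.341 to 0.634 CPM in naive libraries to at most 0.0134 CPM at 48 h, so no fold is given. The transporters Slc27a1 and Slc27a4 fell by 1.105 (adjusted p = 0.00599) and 0.58 (adjusted p = 0.00604) on the log2 scale. In KI at 48 h 3 of these 13 were called lower than in wt and 1 higher, where 1.89% of all genes were called lower and 4.17% in either direction. Acsl3 stood at 20.1 ± 7.41 CPM in KI and 52.0 ± 3.38 CPM in wt (SD, n = 3; log2 fold change -1.37, edgeR adjusted p = 0.000691). Acsl6 differed by -3.17 (adjusted p = 0.00561) at 0.344 against 3.12 CPM, Acsl5 by -0.38 (adjusted p = 0.04995), and Slc27a4 by 0.85 (adjusted p = 0.00669). Without KI replicate 1 only the Acsl3 call of these 4 held. None of the 4 was called with the 48 h KI and wt libraries fitted alone.

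Malonyl-CoA, the product of the first step of fatty acid synthesis, is the inhibitor of Cpt1a. Of 13 tested genes of malonyl-CoA and fatty acid synthesis, 9 were called higher and 2 lower in wt at 48 h (median 1.16). Over all genes the shares were 29.5% and 26.8%, with a median of -0.04. Fads1, a desaturase, rose by 1.91 (edgeR adjusted p = 1.84e-08), Acaca, which makes malonyl-CoA, by 1.83 (adjusted p = 1.41e-07) and Scd2, another desaturase, by 3.90 (adjusted p = 5.56e-07). The 2 that fell were Mlycd, which breaks malonyl-CoA down (-0.90, adjusted p = 0.000359), and Acacb, the carboxylase of the mitochondrial surface (-1.04, adjusted p = 0.0234). In KI at 48 h 5 of the 13 were called lower than in wt, beside 1.89% of all genes, and 0 higher (median -0.57). These included Elovl6, an elongase (-1.002, adjusted p = 0.00681), Fads1 (-0.70, adjusted p = 0.0169) and Fads2 (-3.05, adjusted p = 0.0189). All 5 calls were lost without KI replicate 1, without wt replicate 1, or with only the groups compared.

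Of 14 tested genes of peroxisomal oxidation, 3 were called higher and 6 lower in wt at 48 h (median -0.46), beside 29.5% and 26.8% of all genes. Abcd3, a peroxisomal importer (0.70), and Amacr (0.70) rose, and Scp2, a lipid carrier with thiolase activity (-0.74), Acox3, an acyl-CoA oxidase (-0.82), and Acaa1a, a thiolase (-0.62), fell. Of 23 regulators, 3 were called higher and 10 lower (median -0.09). Foxo1, a transcription factor of quiescent T cells (-1.23, edgeR adjusted p = 1.27e-07), Prkab1, a subunit of AMPK (-0.79, adjusted p = 2.38e-06), and Rxra, the partner of PPARs (-1.99, adjusted p = 6.35e-05), fell, and Tfam, the mitochondrial DNA-binding factor, rose by 0.77 (adjusted p = 0.000795). Of 6 lipolysis genes 1 rose, Pnpla2, the triglyceride lipase (0.47, adjusted p = 0.00853), and 1 fell, Lipa, the lysosomal lipase (-0.78, adjusted p = 0.000610). In none of these 3 lists was a gene called between KI and wt at 48 h by edgeR, where 4.17% of all genes were. An unadjusted p below 0.05 was seen for 3 regulators, 1 lipolysis gene, 0 peroxisomal genes and 3793 of all 21183 genes. Over the alternatives, DESeq2 included, at most 1 regulator and none of the others was called.

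**Figure D5:**
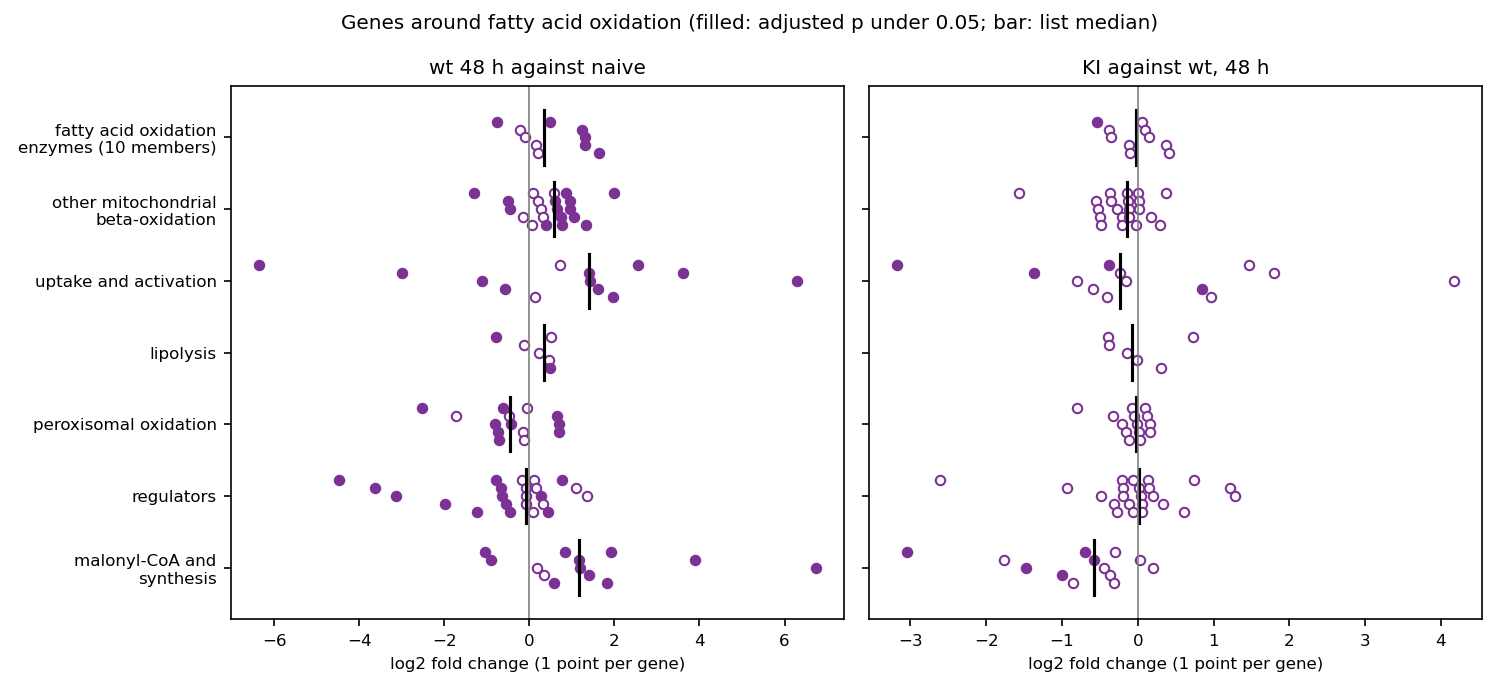
Log2 fold change (horizontal axes) of each tested gene in the 10-gene set and 6 lists around it (vertical axis), for 48 h against naive in wt cells and for KI against wt at 48 h; filled points have an adjusted p below 0.05 and bars are list medians. Medians in the wt contrast run from -0.46 for peroxisomal oxidation to 1.39 for uptake and activation.

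Across the 22 libraries the highest Pearson correlations of log2 CPM were between Cpt2 and Etfb (0.95), Acadl and Etfa (0.93) and Etfa and Etfb (0.91), and Cpt1a ran against Etfb (-0.87). Of the genes that were not called, Slc25a20 had 0.75 with Etfb and 0.70 with Cpt2. These libraries share mice, experiments and the step from naive to stimulated cells. By the same measure the tested genes most like Cpt1a were Nfib (0.94), Wls (0.94) and Pik3cg (0.92), those most like Hadha were Stt3a (0.98), Akt2-ps (0.97) and Hsp90ab1 (0.97), and those most like Acadm were Syt11 (0.89), Pgpep1l (0.89) and 1700123O20Rik (0.88).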

How the data were processed

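Bulk mRNA of 22 CD8+ T cell libraries (100 ng RNA each, stranded kit, paired-end reads of 75 nt) was measured. Per the submitters' processing notes, the tools named were bcl2fastq 2.20.0, TopHat2 2.1.0, Bowtie2 2.2.5, SAMtools 0.1.19, featureCounts and DESeq2 1.6.3, with the builds GRCm38 and mm10; strand and multi-mapping settings are not given in the sources used here. The authors deposited raw read counts per gene, log2 values (log2 of the count divided by a library size factor, plus 1) and FPKM, which equal those normalised counts divided by 1 length per gene. Counts were tested with edgeR 4.0.16 in R 4.3.3 (TMM, filterByExpr with minimum count 10, robust quasi-likelihood F test, 8 group means, 14 residual degrees of freedom); a call is an adjusted p below 0.05 over 21183 genes. CPM are counts scaled to TMM-adjusted totals, or to plain totals for the cell markers and their sums. FPKM served only for levels between genes. Same-numbered libraries of 1 mouse deviated together (median r 0.155 over 20 pairs, 19 above 0.1), and libraries of other mice in the same experiment and time had a median r of 0.164, so mouse and experiment were tried as blocks. Alternatives also covered normalisation, filter, DESeq2 1.42.0, only the groups compared, and each replicate left out; the fit without robust estimation and the counts with copies or an overlapping gene added were chosen after seeing the data. Copies were sought at 90% identity over 150 bases or more in GENCODE M21 transcripts. The test was tried on simulated counts first. The 10 genes and the lists were chosen with earlier results of these data known. Named were all 10 genes, called genes of the mitochondrial list, at most 3 genes in each direction by smallest p of each other list, and the 3 genes most like Cpt1a, Acadm and Hadha. Nothing says the libraries of a group are technical repeats; each came from a different mouse.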

Additional observations from a re-analysis of the deposited data

Results flagged for a closer look

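Acsl3, an acyl-CoA synthetase that charges fatty acids upstream of the carnitine shuttle, responded differently in KI and wt by a test of the difference itself. Its response from naive to 48 h cells was smaller in KI by 1.31 on the log2 scale (KI minus wt response -1.31, called by edgeR). Acsl3 went from 8.85 ± 0.434 to 52.0 ± 3.38 CPM in wt and from 8.49 ± 0.489 to 20.1 ± 7.41 CPM in KI (SD, n = 3). It was called in 9 of 17 alternatives, with values from -1.60 to -1.17 and the highest adjusted p, 0.385, without KI replicate 1.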

How the results depend on the processing

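Of 444 alternatives run on the 32 called values of the 10 genes, 423 kept the call, 21 lost it and 0 turned its direction. Of 225 alternative counts of called genes, 212 stayed within 1.5 times, with 0 against 0 taken as the same. Many of these were 0 against 0. The main count was 0 for KI at 48 h against 24 h and for KI against wt in naive cells and at 24 h. It was also 0 for KO against wt and for every test of the response. Exceptions among the 225 were these. For wt at 48 h against 24 h the count of 1 became 0 without a filter on low counts, 0 with only the groups compared, and 0 to 0 with a wt replicate left out. For the libraries labelled KO at 48 h against naive the count of 6 became 1 with only the groups compared and 3 to 5 with a replicate left out (3 without KO replicate 5). For KI against wt at 48 h the count of 1 became 0 with only the groups compared and 0 to 1 with a replicate left out. For KO against wt at 48 h the count of 0 became 0 to 2 (2 without KO replicate 5). The cause was not tested, beyond fewer samples. Acadvl in wt at 48 h went from -0.22 to -0.68 without wt replicate 3 and to 0.094 without wt replicate 5. Of 1806 alternatives run on the 118 uncalled values, 135 changed the sign, none of them with a call. A further 18 kept the sign and gave a call. With the replicate block (experiment or mouse) 7 of the 10 were called in wt at 24 h in place of 6, the added gene being Slc25a20, and the pairing changed no other call than those given beside Slc25a20 and Acadm. Upper-quartile factors moved the median of all genes to -0.23 at 24 h and -0.26 at 48 h in wt, and the counts of members stayed at 6. Over all genes, 884 were called between KI and wt at 48 h (91 without KI replicate 1, 109 with only the groups compared, 1714 by DESeq2), 1587 between 48 h and 24 h in wt (134 without wt replicate 1, 2465 by DESeq2) and 9314 at 48 h in the libraries labelled KO (1190 with only the groups compared). With 2 libraries labelled KO, precision there is lowest.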
